A study of Caenorhabditis remanei with 48 samples.

Results

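The data describe 16 genes of the nematode *Caenorhabditis remanei*, of 24723 gene models in the deposited counts, whose transcripts stood higher in larvae held at 30 °C when the parents had lived at 20 °C but not, on average, when the parents had lived at 30 °C. The genes were chosen by a rule on measured values. Each library's counts were scaled to counts per 1000000 (CPM) with factors from the trimmed mean of M values (TMM), and log2(CPM + 1) was averaged within each group. A gene belonged to the set when the larval difference, 30 minus 20 °C, averaged at least 1.5 over 3 populations and exceeded 0.5 in each of them with parents at 20 °C, and averaged below 0.5 with parents at 30 °C. The larval differences at either parental temperature, within a population or averaged, and the change between them are therefore a description of the choice and carry no test.

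The libraries held polyadenylated RNA of pooled L1 larvae (the first larval stage), about 100000 individuals per replicate. Bleaching yielded embryos of one age, which spent 20 h at 20 or 30 °C in buffer with no bacteria before the larvae were filtered through a 20 micron mesh. The ancestor is the strain PX443, and the control-selected and heat-selected populations are both described by their strain labels as derived from it, so that each kind of selection is represented by 1 population. In each population 6 libraries per larval temperature came from parents kept at 20 °C and 2 per larval temperature from parents kept at 30 °C, 48 libraries in all. The labels name 6 batches, A and B in the ancestor, with C and D for the control-selected line and with E and F for its heat-selected counterpart, and every library of heated parents belongs to A, C or E. Population and batch therefore cannot be told apart, and a population difference holds for these populations only. The labels do not say that replicates were separate cultures, so p-values measure only the spread between these samples, which may be technical.

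Animal cells meet heat by releasing heat shock factor, a transcription factor that switches on chaperone genes, while transcription of many other genes slows. Nematode larvae that hatch without food arrest in the first stage and live on what the mother placed in the egg, so that RNA, protein and yolk of maternal origin are part of their starting state. In *C. elegans* the temperature or stress that parents met is known to alter gene expression and stress resistance in their offspring. The identifiers of the 16 genes come with no gene names or products in the sources used here, so nothing is said of what these genes encode. In whole larvae, fewer cells of a type and less RNA per cell cannot be told apart.

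With unheated parents the larval difference of the 16 genes ran from 1.54 in CRE27317 to 3.16 in CRE01964, on the log2(CPM + 1) scale and averaged over the populations. With heated parents the same average ran from -1.58 in CRE03443 to 0.46 in CRE02593. It was below 0 in 6 genes (CRE01964, CRE18121, CRE22361, CRE24499, CRE03443 and CRE12268). The threshold on the first difference ran between CRE27317 at 1.54 and CRE11522, left out at 1.44. The threshold on the second ran between CRE02593 at 0.46 and CRE28918, left out at 0.50. The lowest difference in a single population with unheated parents was 0.95, in CRE28556, and no gene was left out by that condition alone. A further 58 genes met the conditions for unheated parents and kept an average of at least 0.5 with heated parents, 24 of them at least 1.5.

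**Figure D1:**
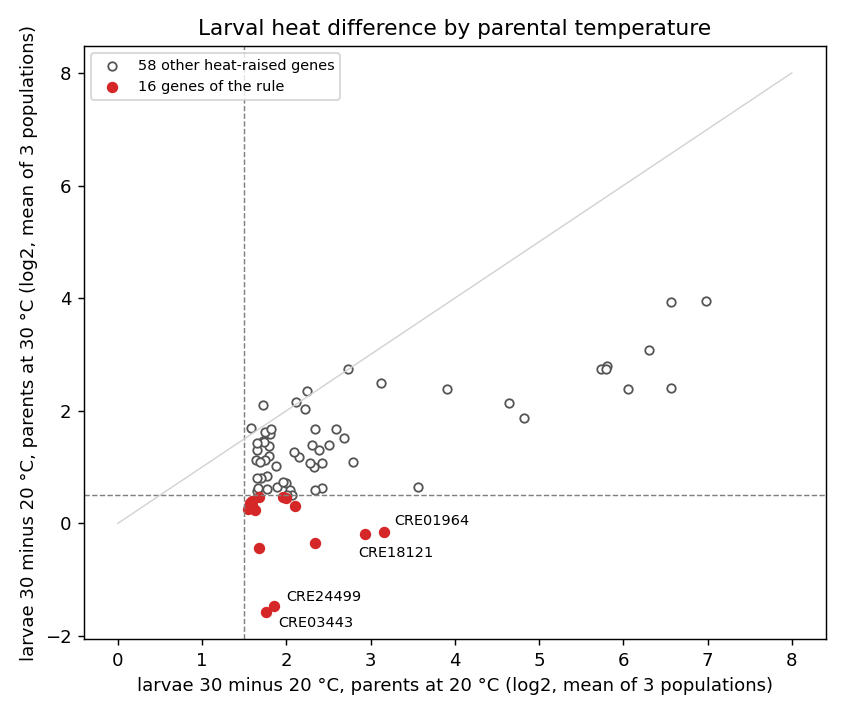
Larval difference (larvae at 30 minus 20 °C, mean of 3 populations, log2(CPM + 1)) with parents at 20 °C on the x axis and with parents at 30 °C on the y axis. Filled points are the 16 genes and open points the 58 other genes raised by heat with unheated parents; dashed lines mark the thresholds of 1.5 and 0.5, the grey line marks equality, and CRE24499 and CRE03443 lie lowest at -1.47 and -1.58.

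An average below 0.5 arose in different ways. A first group of 7 genes was formed by tests given below, being called higher in the ancestor and lower in the heat-selected population with heated parents. In these 7 (CRE01964, CRE18121, CRE22361, CRE04619, CRE12268, CRE10111 and CRE16040) the larvae of heated ancestor parents stood above the 20 °C median of unheated parents at both temperatures. Those of heated control-selected and heat-selected parents mostly stood near the low level at both. In 2 genes (CRE24499 and CRE03443) larvae of heated parents stood lower at 30 than at 20 °C. In 1 gene (CRE16387) they stood high at both temperatures in the control-selected and heat-selected populations. In CRE12051 the ancestor's larvae of heated parents had a larval difference of 2.45, the highest of the 16 there, and those of the selected populations had differences below 0. The other 5 genes (CRE02851, CRE02593, CRE28556, CRE08322 and CRE27317) were not called in those tests. The levels described for the 7 also held in CRE12051 and CRE02593. Those described for the ancestor also held in CRE03443, CRE16387, CRE28556 and CRE27317, so they were not particular to the 7. With heated parents both ancestor libraries at 30 °C lay above both at 20 °C in 5 genes (CRE12051, CRE02593, CRE04619, CRE28556 and CRE10111). Of all tested genes 25.1% did so, so the count is not particular to the 16. In control-selected larvae this held in 4 genes (CRE02851, CRE28556, CRE08322 and CRE27317), where 24.1% did. In heat-selected larvae it held in 4 (CRE02851, CRE16387, CRE16040 and CRE27317), where 17.4% did. The larval difference there reached 1.48 in control-selected larvae (CRE28556, 0.95 with unheated parents) and 1.26 in heat-selected larvae (CRE16040).

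CRE01964 had the largest larval difference with unheated parents. In the ancestor its 6 libraries of larvae at 20 °C ran from 70.6 CPM through a median of 125 to 176, and those at 30 °C from 599 through 1872 to 2063. With heated parents the ancestor's larvae had 982 and 1035 CPM at 20 °C and 887 and 1221 at 30 °C. So the ancestor's larvae of heated parents all lay above every library of unheated parents at 20 °C, whichever temperature they had met themselves.

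In the control-selected population CRE01964 ran from 51.4 through a median of 90.7 to 128 CPM in larvae at 20 °C with unheated parents, and from 475 through 1165 to 1656 at 30 °C. With heated parents it was 74.1 and 65.7 CPM at 20 °C and 80.0 and 66.2 at 30 °C. Both temperatures thus gave levels within the range of unheated parents at 20 °C.

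In the heat-selected population CRE01964 ran from 93.3 through 721 to 911 CPM at 20 °C and from 1776 through 2143 to 4039 at 30 °C with unheated parents. With heated parents it was 61.5 and 123 CPM at 20 °C and 76.6 and 44.5 at 30 °C. Every library of larvae at 30 °C from heated parents in the selected populations lay below every one from unheated parents.

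CRE18121 had the next largest larval difference and followed a similar course, except that heat-selected larvae of unheated parents overlapped between the temperatures. In the ancestor it ran from 3.27 through a median of 7.49 to 10.9 CPM at 20 °C and from 40.8 through 101 to 147 at 30 °C with unheated parents. The ancestor's larvae of heated parents had 73.3 and 90.8 CPM at 20 °C and 104 and 77.4 at 30 °C. These 4 libraries lay within the range of heated larvae of unheated parents.

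In the control-selected population CRE18121 ran from 2.29 through 5.09 to 8.51 CPM at 20 °C and from 27.7 through 61.8 to 164 at 30 °C with unheated parents. With heated parents it was 3.5 and 3.46 CPM at 20 °C and 1.17 and 2.98 at 30 °C. Heat-selected larvae of unheated parents ran from 8.37 through 64.9 to 86.8 CPM at 20 °C and from 75.4 through 134 to 203 at 30 °C, and those of heated parents had 2.61 and 4.54 at 20 °C and 3.61 and 2.83 at 30 °C. All 8 of these libraries lay below the lowest library at 30 °C of unheated parents in either population.

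CRE12268 stood higher in the ancestor's larvae of heated parents than in any library of its unheated parents. With unheated parents its ancestor libraries ran from 23.0 through 27.5 to 31.9 CPM at 20 °C and from 80.1 through 115 to 139 at 30 °C. With heated parents they had 260 and 257 CPM at 20 °C and 216 and 288 at 30 °C. The control-selected larvae of heated parents had 31.2 and 31.3 CPM at 20 °C and 26.6 and 22 at 30 °C, near the 20 °C range of unheated parents (19.5 to 25.6), and the heat-selected larvae had 33.3 and 34.6 at 20 °C and 24 and 12.4 at 30 °C.

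CRE22361 in the ancestor ran from 1.71 through 2.02 to 2.63 CPM at 20 °C and from 15.2 through 16.7 to 20.1 at 30 °C with unheated parents, and stood at 28.1 and 24.6 at 20 °C and 27.7 and 33.9 at 30 °C with heated parents. Control-selected larvae of heated parents had 2.40 and 1.08 CPM at 20 °C and 0.391 and 1.34 at 30 °C. Heat-selected ones had 1.39 and 2.55 at 20 °C, and 2.33 and 0 at 30 °C. All 4 heated-parent libraries of the ancestor thus lay above all 12 of its unheated parents, and the other populations' 8 libraries of heated parents stayed at or below 2.55 CPM.

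CRE16040 and CRE10111 had smaller larval differences with unheated parents. The ancestor's CRE16040 ran from 0.428 through 2.62 to 6.36 CPM at 20 °C and from 7.38 through 9.55 to 19.3 at 30 °C with unheated parents, against 32.0 and 24.3 at 20 °C and 23.5 and 23.8 at 30 °C with heated parents. In the other populations the larvae of heated parents ranged from 1.22 to 8.83 CPM. CRE10111 in larvae of heated parents had 71.1 and 59.8 CPM at 20 °C and 128 and 97.6 at 30 °C in the ancestor, and from 10.4 to 24.6 in the other populations.

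In CRE04619, as in CRE10111, the ancestor's larvae of heated parents still stood higher at 30 than at 20 °C. For CRE04619 they had 132 and 96.5 CPM at 20 °C and 321 and 253 at 30 °C, against a range of 16.9 to 52.0 at 20 °C and 34.5 to 99.0 at 30 °C with unheated parents. Control-selected larvae of heated parents ranged from 31 to 46.2 CPM and heat-selected ones from 24.2 to 55.1, with the larval temperatures overlapping in both. Heat-selected larvae of unheated parents reached 457 CPM at 30 °C.

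**Figure D2:**
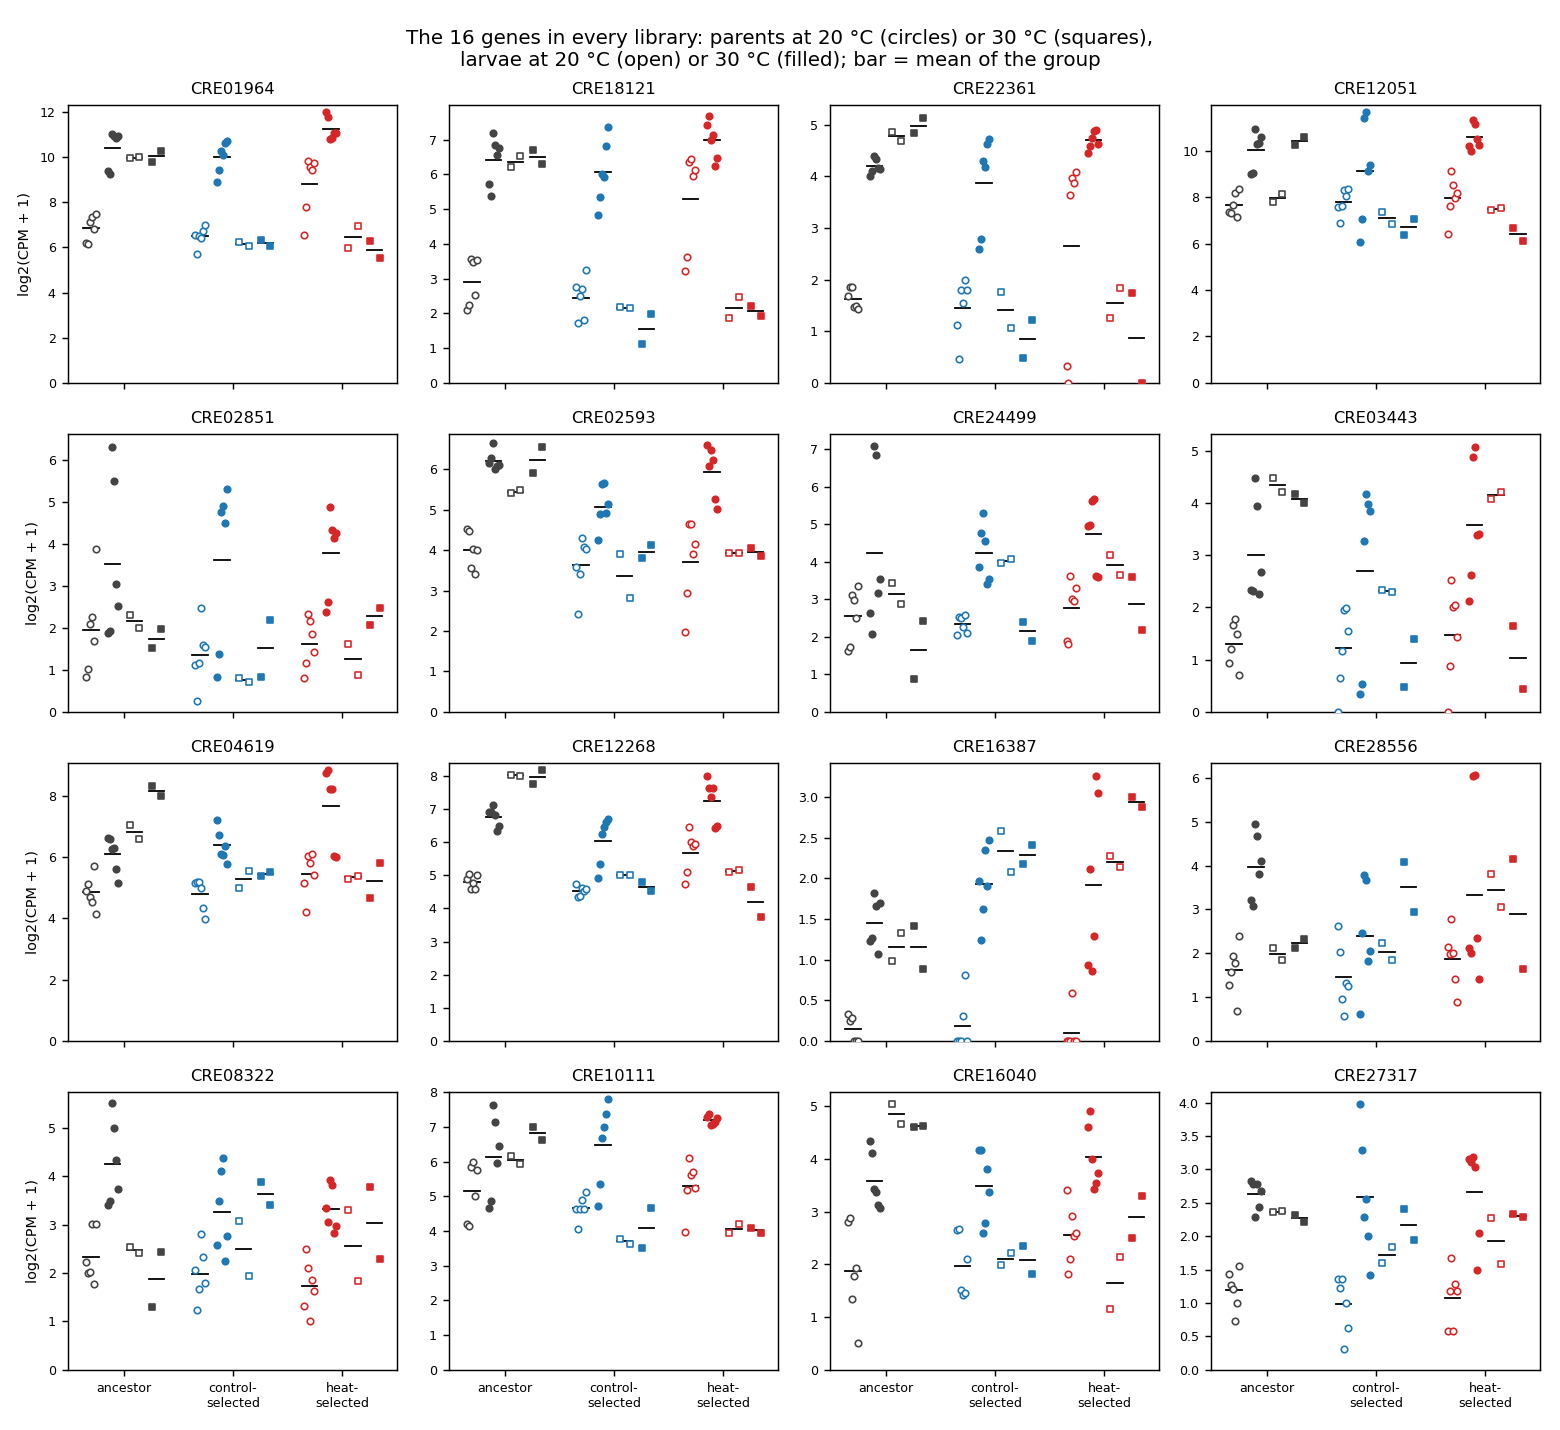
log2(CPM + 1) of each of the 16 genes in all 48 libraries, by population on the x axis; circles are libraries of parents at 20 °C, squares of parents at 30 °C, open symbols larvae at 20 °C, filled symbols larvae at 30 °C and bars group means. In CRE01964, CRE18121, CRE22361, CRE12268, CRE10111 and CRE16040 the ancestor's squares lie near or above its filled circles, and those of the other populations lie low.

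The parental effect, the difference between larvae of heated and unheated parents averaged over both larval temperatures, is not one of the larval differences that chose the genes. It was tested with edgeR's quasi-likelihood test on the counts, with batch as a term, over the 13460 genes that passed a filter on low counts (all 16 did), at a Benjamini-Hochberg adjusted p under 0.05. In the ancestor 8 of the 16 rose with heated parents and 0 fell, where 3.86% of all tested genes were called and 2.97% rose. In the heat-selected population 8 fell and 1 rose, where 5.54% were called and 2.77% fell. Of the 58 other genes raised by heat with unheated parents, 6 rose in the ancestor and 24 fell in the heat-selected population. The median fitted log2 fold change of the 16 was 1.48 in the ancestor and -1.27 in the heat-selected population, against -0.04 and 0.01 over all tested genes. The 58 others had medians of 0.50 and -1.29, so the fall in the heat-selected population was not particular to the 16. The rule makes the parental differences at the 2 larval temperatures unequal, and the same libraries chose the genes. An average away from 0 is therefore partly built in, and the share of all genes is no measure of chance for the 16. The rule names no direction, but CRE16387 had little room to fall at 20 °C. Its unheated-parent libraries there held at most 2, 3 and 1 counts in the ancestor, control-selected and heat-selected population.

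The 7 genes grouped first above are those that were called in both, higher in the ancestor and lower in the heat-selected population. These calls formed the group and are no separate support for it. CRE01964 rose by 1.75 ± 0.38 (fitted log2 fold change ± SE; adjusted p = 0.0032) in the ancestor and fell by 3.79 ± 0.47 in the heat-selected population (adjusted p = 1.3e-06). For CRE18121 the values were 2.35 ± 0.41 (adjusted p = 0.00028) and -4.29 ± 0.57 (adjusted p = 3.3e-06). CRE12268 rose by 2.25 ± 0.26 (adjusted p = 2.7e-07) in the ancestor, a change 4 of 4 libraries of heated parents showed, and fell by 1.89 ± 0.31 in the heat-selected population (adjusted p = 0.00013). CRE22361 gave 2.25 ± 0.35 and -2.20 ± 0.53 (adjusted p = 4.5e-05 and 0.0085), and CRE04619, CRE10111 and CRE16040 gave 1.59 to 2.00 in the ancestor and -2.11 to -1.73 in the heat-selected population (adjusted p at most 0.0011 and 0.014). Without a batch term, CRE10111 in the ancestor was 0.52 and CRE16040 in the heat-selected population -1.31, neither called. In the heat-selected population CRE04619 lost its call with scaling to total counts (-1.66) and without any 1 of 5 libraries of batch E (adjusted p up to 0.092), and CRE16040 without the first library of heated parents at 20 °C (adjusted p = 0.055).

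The fall of CRE22361 in the heat-selected population rested on the libraries of batch F, which held no heated parents. Within batches A, C and E it was -0.28 and not called, its unheated larvae at 20 °C having 0.246 and 0 CPM in batch E against 11.4 to 16 in batch F. It was -5.15 without the first heat-selected library of heated parents at 30 °C, whose partner held no count of the gene, and it lost its call (adjusted p up to 0.078) without any 1 of 3 libraries of batch E. Libraries numbered consecutively within a group resembled each other, and when each such pair was summed and counted once, which leaves 1 sample per group of heated parents, 1 gene (CRE03443) remained called in the ancestor and 0 in the heat-selected population. Without the first heat-selected library of heated parents at 20 °C, 5 of the 9 calls in that population remained.

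In the control-selected population 1 of the 16 genes was called, CRE16387, where 0.156% of tested genes were. The 7 genes had fitted values from -2.02 (CRE18121) to -0.08 (CRE12268) there, with adjusted p from 0.094 (CRE16040) to 1, and 6 of the 16 had an unadjusted p under 0.05. DESeq2 called 5 of the 16 in this population. Averaged over the 3 populations, 4 of the 16 were called, 2 in each direction, against 3.09% of all genes. CRE01964 and CRE18121 fell by 1.19 ± 0.24 and 1.32 ± 0.30 (adjusted p = 0.0022 and 0.0081 in edgeR's quasi-likelihood test), an average over populations that moved in opposite directions. In limma-voom CRE18121 was not called over all populations.

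**Figure D3:**
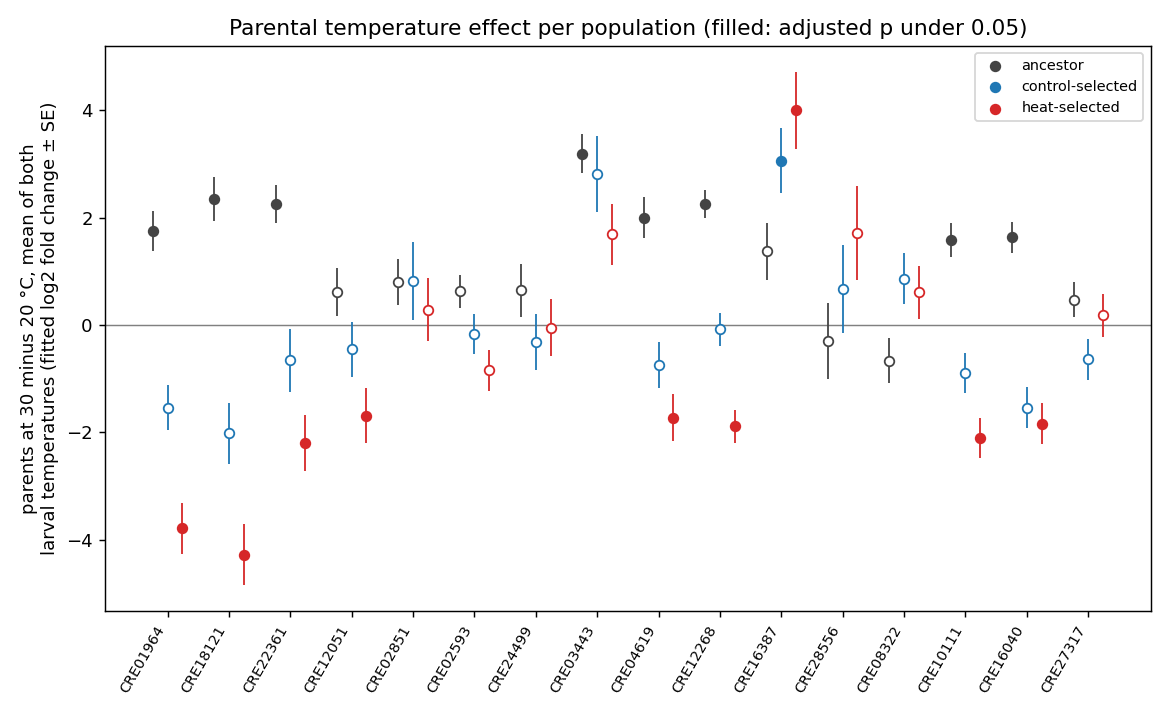
Fitted log2 fold change, with SE, of the parental effect (parents at 30 minus 20 °C, mean of both larval temperatures) for the 16 genes in each population; filled points have an adjusted p under 0.05. In 7 genes the ancestor point is filled and above 0 and the heat-selected point filled and below it, from 2.35 and -4.29 in CRE18121 to 1.59 and -2.11 in CRE10111.

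The differences in the parental effect between populations were tested after these values had been seen. Of the 16 genes, 7 had a lower parental effect in the control-selected population than in the ancestor, where 1.13% of genes were called and 0.854% were lower. Among the 58 other heat-raised genes 3 were lower. The 7 were those grouped above by their calls in the ancestor and the heat-selected population. The difference reuses the ancestor's values, so a lower effect was favoured in advance for these 7. The share of all genes is therefore no measure of chance for them. The fitted differences ran from -4.37 ± 0.71 in CRE18121 (adjusted p = 0.00023 in edgeR's quasi-likelihood test) to -2.34 ± 0.40 in CRE12268 (adjusted p = 0.00064). Between the heat-selected population and the ancestor 8 genes were lower, these 7 and CRE12051, where 8.34% of genes were called and 4.39% were lower. The 7 were grouped by the 2 effects compared here, so their direction was set by the grouping. Of the 58 others 23 were lower, with a median difference of -1.91 against -1.90 for the 16. CRE18121 differed most, by -6.64 ± 0.70 (adjusted p = 1.4e-08), and CRE12051 least, by -2.30 ± 0.67 (adjusted p = 0.025).

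Between the heat-selected and the control-selected population 0 of the 16 genes were called by edgeR's quasi-likelihood test, where 0.0297% of all genes were. An unadjusted p under 0.05 occurred in 4, and DESeq2 called 2; 1 was called without the first control-selected and 2 without the first heat-selected library of unheated parents at 20 °C. With consecutively numbered libraries summed in pairs, 0 genes were called between the control-selected population and the ancestor, and 5 between the heat-selected population and the ancestor.

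CRE03443 stood high in larvae of heated parents at 20 °C and low at 30 °C in the selected populations. In the ancestor it ran from 0.641 through 1.56 to 2.43 CPM at 20 °C and from 3.76 through 4.70 to 21.2 at 30 °C with unheated parents, and had 21.3 and 17.4 at 20 °C and 17.0 and 15.0 at 30 °C with heated parents. Heat-selected larvae of heated parents had 15.9 and 17.6 CPM at 20 °C and 2.12 and 0.353 at 30 °C, against at most 4.78 at 20 °C and at least 3.33 at 30 °C with unheated parents. The larval order at heated parents was thus the reverse of that at unheated parents in this population, with no overlap in the first case and some in the second.

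In control-selected larvae of heated parents CRE03443 had 4.06 and 3.89 CPM at 20 °C and 0.391 and 1.64 at 30 °C. It rose with heated parents by 2.57 ± 0.32 over all populations and by 3.20 ± 0.36 in the ancestor (adjusted p = 1.3e-06 and 1.5e-07 in edgeR's quasi-likelihood test). Its values of 2.82 ± 0.71 for control-selected and 1.69 ± 0.56 for heat-selected larvae did not pass the adjustment (adjusted p = 0.11 and 0.067). Without a batch term the value over all populations was 0.38 and not called (adjusted p = 0.49). The call was also lost without the first heat-selected library of heated parents at 30 °C, at 2.25 (adjusted p = 0.055).

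CRE24499 also stood lower at 30 °C with heated parents in each population. Its libraries of heated parents had 9.80 and 6.31 CPM at 20 °C and 0.838 and 4.40 at 30 °C in the ancestor, 14.6 and 16 against 4.31 and 2.68 in the control-selected, and 17.1 and 11.6 against 11 and 3.53 in the heat-selected population. The 2 temperatures did not overlap in any population. With unheated parents the ancestor's larvae at 30 °C split by batch, with 136 and 115 CPM in batch B and 3.19 to 10.7 in batch A. No parental effect was called for this gene, and its average over all populations was 0.09 ± 0.29 (adjusted p = 0.94 in edgeR's quasi-likelihood test).

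CRE16387 was nearly uncounted in larvae at 20 °C of unheated parents. It had at most 2, 3 and 1 counts in any such library of the ancestor, control-selected and heat-selected population, and between 0.807 and 8.58 CPM at 30 °C. With heated parents it had 4.98 and 3.24 CPM at 20 °C and 3.52 and 4.31 at 30 °C in the control-selected, and 3.83 and 3.40 against 7.0 and 6.36 in the heat-selected population. Each of the 12 libraries of heated parents lay above all 18 of unheated parents at 20 °C, the ancestor's at 0.842 to 1.68 CPM.

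The parental effect of CRE16387 was 2.81 ± 0.36 over all populations, 3.06 ± 0.61 for control-selected and 4.00 ± 0.72 for heat-selected larvae (adjusted p = 1.9e-06, 0.014 and 0.0004 in edgeR's quasi-likelihood test). In the ancestor it was 1.37 ± 0.53 (adjusted p = 0.14). These fitted values depend on how near-empty libraries are treated and are no bound on the change. The call in the control-selected population was lost without any 1 of 5 of its libraries, with the value between 2.81 and 3.69.

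CRE12051 in the ancestor's larvae of heated parents had 221 and 280 CPM at 20 °C and 1216 and 1532 at 30 °C, close to the medians of 181 and 1264 with unheated parents. The heat-selected larvae had 174 and 185 CPM at 20 °C and 101 and 68.2 at 30 °C with heated parents, against at least 999 at 30 °C with unheated parents. In control-selected larvae of unheated parents at 30 °C it split by batch, with 65.3 and 132 CPM in the libraries of batch C and 551 to 3291 in those of batch D. The larvae of heated parents, also of batch C, had 164 and 115 at 20 °C and 80.4 and 130 at 30 °C.

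The parental effect of CRE12051 in the heat-selected population was -1.69 ± 0.51 (adjusted p = 0.039 in edgeR's quasi-likelihood test). Its difference from the ancestor in the parental effect was not called in the control-selected population (-1.06 ± 0.68, adjusted p = 0.57), and the one called in the heat-selected population was lost without any 1 of 5 libraries. The effect in the heat-selected population lost its call without any 1 of 7 heat-selected libraries of batch E, with the value between -1.93 and -1.56.

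CRE02851, CRE02593, CRE28556, CRE08322 and CRE27317 were called for no parental effect, nor was CRE24499. For CRE02593 the ancestor's larvae of heated parents had 41.8 and 43.6 CPM at 20 °C and 58.7 and 92.8 at 30 °C, above the highest of unheated parents at 20 °C (22). The 8 libraries of heated parents in the selected populations ranged from 6.05 to 16.4. For CRE27317 the 12 libraries of heated parents ranged from 1.99 to 4.31 CPM, between group means of 1.04 to 1.33 at 20 °C and 5.25 to 6.17 at 30 °C with unheated parents. CRE08322 and CRE28556 differed widely between the 2 libraries of a group of heated parents, with 12.7 and 3.89 CPM, and 16.8 and 2.12 CPM, in heat-selected larvae at 30 °C.

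CRE02851 had 0.648 to 4.59 CPM in all 12 libraries of heated parents. With unheated parents at 30 °C it ran from 2.68 to 78.7 CPM in the ancestor, 0.790 to 38.5 in the control-selected and 4.24 to 28.3 in the heat-selected population. The high libraries were those of batches B, D and F, and batches A, C and E held at most 7.30.

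The loss of the larval difference was therefore set against the batches that held the libraries of heated parents. Within batches A, C and E alone, the larval difference with unheated parents averaged at least 1.5 in 10 of the 16 genes, between 0.5 and 1.5 in 5, and 0.45 in CRE28556. In batches B, D and F it averaged at least 1.5 in 14. In batch C, which held the control-selected libraries of heated parents, the difference with unheated parents was below 0.5 in 4 genes: CRE12051 (-0.67), CRE28556 (-0.78), CRE03443 (0.11) and CRE02851 (0.42). In batch A it was below 0.5 in 0 genes, and in batch E in CRE28556 alone, at 0.00063. For CRE18121 it was 0.49 in batch F, against 4.13 in batch E.

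CRE01964, CRE18121 and CRE22361 had average differences of 3.88, 3.65 and 2.86 within batches A, C and E, above those of 2.94, 2.73 and 2.12 in the other batches. In the ancestor the fifth and sixth libraries of larvae at 30 °C carry the label of batch A, whereas those of the same number at 20 °C carry that of batch B. Their CRE01964 values of 1812 and 1947 CPM were nearer to the 1932 and 2063 of batch B than to the 665 and 599 of the first libraries of batch A.

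**Figure D4:**
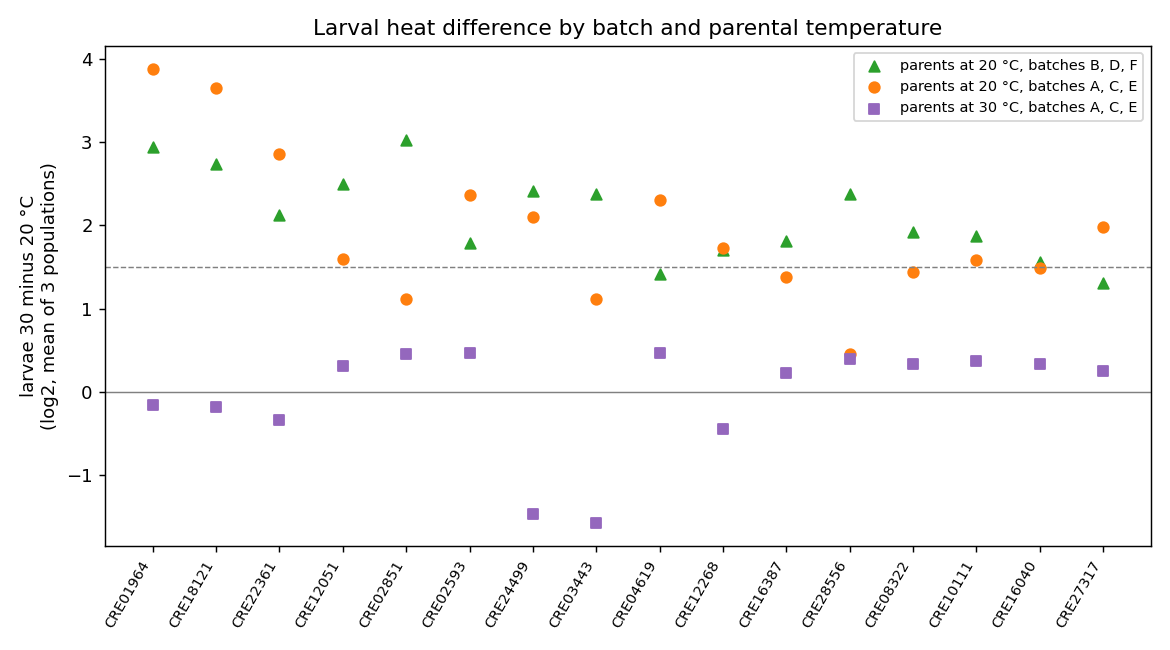
Larval difference (30 minus 20 °C, log2(CPM + 1), mean of 3 populations) of each gene with unheated parents in batches B, D and F (triangles) and A, C and E (circles), and with heated parents, all in A, C and E (squares). The circles lie above the dashed line at 1.5 in 10 of 16 genes, and the circle of CRE28556, at 0.45, lies beside its square at 0.39.

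The larval difference with heated parents was below 0.5 in 12 of the 16 genes in the ancestor, 12 in control-selected larvae and 13 in heat-selected larvae, with medians of 0.02, 0.02 and -0.10. Among the 58 other genes it was below 0.5 in 2, 25 and 30, with medians of 2.33, 0.73 and 0.46. Both sets were formed by this difference averaged over the populations, so the counts describe and do not test. The selected populations' larvae of heated parents thus lacked a difference of 0.5 in many of the 58 genes as well, whereas the ancestor's lacked it in few beyond the 16. Of the 58, 6 genes (CRE06458, CRE06457, CRE09130, CRE08713, CRE11034 and CRE17248) differed by more than 1.5 in every population with heated parents, for example CRE06458 by 2.30 in the ancestor, 2.53 in control-selected and 2.21 in heat-selected larvae.

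The rule used the heated-parent larval difference averaged over populations and set no direct condition on how populations differ in it. Holding that average below 0.5 still tends to leave out genes with a large difference in 1 population. The fitted differences from the ancestor had medians of -0.34 (control-selected) and -0.58 (heat-selected) in the 16 genes. In the 58 others they were -2.08 and -2.36. Few calls were thus favoured by the choice, and the counts do not show that the populations respond alike. The difference between populations was tested for each pair. By edgeR's quasi-likelihood test 0 of the 16 genes were called between the control-selected population and the ancestor, where 0.379% of genes were, and 0 between the heat-selected population and the ancestor, where 0.201% were. Between the selected populations 0 were called, where 0% were. An unadjusted p under 0.05 occurred in 1, 3 and 0 genes, and between the heat-selected population and the ancestor DESeq2 called 2, and 1 was called without the second ancestor library of heated parents at 30 °C.

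**Figure D5:**
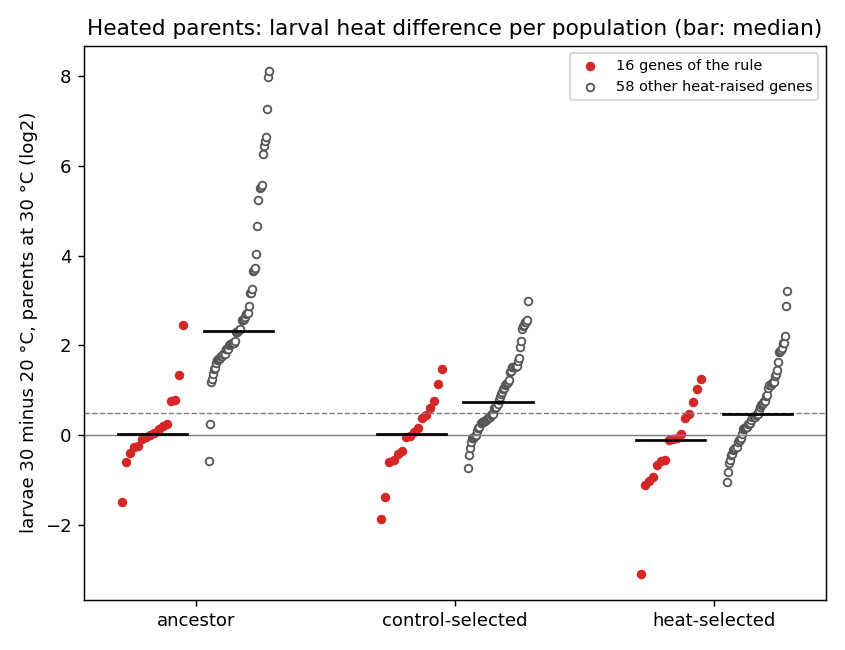
Larval difference with heated parents (30 minus 20 °C, log2(CPM + 1)) per population, for the 16 genes (filled) and the 58 other genes raised by heat with unheated parents (open); bars are medians and the dashed line marks 0.5. The medians of the 58 are 2.33 in the ancestor, 0.73 for control-selected and 0.46 for heat-selected larvae, and those of the 16 lie between -0.10 and 0.02.

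Library ranges describe the same contrast. With unheated parents all larvae at 30 °C lay above all at 20 °C in 12, 8 and 9 of the 16 genes (populations in the order ancestor, control-selected, heat-selected), where 3.46, 3.32 and 3.05% of tested genes did. With heated parents they did so in 5, 4 and 4 genes, where 25.1, 24.1 and 17.4% did. Larvae at 20 °C of heated parents lay above all those of unheated parents in 10, 5 and 4 genes, where 12.3, 9.95 and 6.72% did. Larvae at 30 °C of heated parents lay below all those of unheated parents in 2, 9 and 11 genes, where 10.4, 3.63 and 7.64% did. These counts use the libraries that chose the genes, and they are given with no test.

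With unheated parents, 5 of the 16 genes had a higher level in the heat-selected population than in the ancestor, averaged over both larval temperatures, where 6.58% of genes were called and 2.31% were higher. The same 5 (CRE01964, CRE18121, CRE22361, CRE04619 and CRE12268) were higher than in the control-selected population, where 1.75% were called and 1.29% were higher. Of the 58 other heat-raised genes 14 and 21 were higher in these 2 comparisons. Their medians were 0.58 and 0.94, against 0.49 and 0.62 for the 16, so the higher level was not particular to the 16. CRE18121 was higher by 1.75 ± 0.31 and 2.13 ± 0.32 (adjusted p = 0.00045 and 3.5e-05 in edgeR's quasi-likelihood test), and CRE01964 by 1.56 ± 0.27 and 1.96 ± 0.28 (adjusted p = 0.00037 and 9.2e-06). Between the control-selected population and the ancestor 0 of the 16 were called, where 2.83% were, with an unadjusted p under 0.05 in 3 and 0 calls by DESeq2.

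At 20 °C these 5 genes stood higher in every library of batch F than in those of batch E. CRE01964 had 695 to 911 CPM in the 4 libraries of batch F at 20 °C and 93.3 and 218 in the 2 of batch E. CRE18121 had 61.4 to 86.8 against 8.37 and 11.3, and CRE12268 had 58.1 to 87.2 against 25.6 and 33.5. Reads outside genes made up 26.7 to 40.0% of these libraries of batch F and 24 and 27.4% of those of batch E, and their part in the result was not tested. With batch as a random block in limma-voom, or with consecutive libraries summed in pairs, 0 of the 5 were called against either population. In limma-voom with no such block CRE22361 was 0.66 above the ancestor and 1.03 above the control-selected population, neither called. CRE04619 lost its call against the control-selected population in that fit and with scaling to total counts.

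The 16 genes lay on 15 linkage groups or scaffolds of the files' identifiers, of which linkage group 4 alone held 2 (CRE16387 and CRE10111). In the PX506 assembly of RefSeq, which is not the assembly of the counts, 14 matched a locus tag.

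Depth and scaling differed between libraries. Counts in genes ran from 1986767 to 12717722 per library, the lowest being the second heat-selected library of heated parents at 30 °C. TMM factors ran from 0.70 to 1.53, and those of libraries of heated parents from 1.01 to 1.42. Reads outside genes made up 41.1% in the first ancestor library of heated parents at 30 °C and 47.1% in the second heat-selected one at 20 °C, against 9.16 to 32.5% in the other libraries of heated parents.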

How the data were processed

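Read counts per gene model are the values deposited by the authors, 1 file per library. Per the submitters' processing notes, GSNAP and HTSeq were used; the genome build and strand setting are not given in the sources used here. Category rows (reads outside genes, not aligned, ambiguous or aligned more than once) were left out of library sizes and tests; ambiguous reads were 1.98 to 5.41% of a library.

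TMM factors over all gene rows gave the CPM on which the genes were chosen and described (pseudocount 1). CPM are not adjusted for gene length, so levels are not compared between genes. Tests used edgeR 4.0.16 in R 4.3.3: quasi-likelihood fits of all 48 libraries in 12 groups, filterByExpr at a minimum count of 10 (13460 genes), Benjamini-Hochberg adjustment over all of them, threshold 0.05. Batch was a term except for levels between populations, in which batches are nested. DESeq2 1.42.0, limma-voom (limma 3.58.1), other scalings, filters, a block, pairs of libraries and omission of each library were alternatives.

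The genes, lists and comparisons were chosen with earlier results of these data known, and the differences in the parental effect between populations after the values were seen. All 16 genes are named, with those nearest outside the thresholds. The other genes of the rule's first conditions (58) that are named differed by more than 1.5 in every population with heated parents. Of the 24723 identifiers, 15243 matched a RefSeq locus tag of another assembly; lists by product and promoter motifs were not analysed here.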

Additional observations from a re-analysis of the deposited data

Results flagged for a closer look

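The effect of parental temperature, averaged over both larval temperatures, differed between populations by edgeR's quasi-likelihood test in these genes. All but CRE12051 were grouped by their own ancestor and heat-selected calls, so values lower than the ancestor's were favoured in advance. Between the control-selected population and the ancestor the fitted log2 differences were -3.30 in CRE01964, -4.37 in CRE18121, -2.91 in CRE22361, -2.74 in CRE04619, -2.34 in CRE12268, -2.48 in CRE10111 and -3.17 in CRE16040. The call of CRE22361 was lost without any 1 of 3 control-selected libraries, with values between -3.50 and -2.64, and with a replicate block.

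Between the heat-selected population and the ancestor the differences were -5.55 in CRE01964, -6.64 in CRE18121, -4.45 in CRE22361, -2.30 in CRE12051, -3.73 in CRE04619, -4.14 in CRE12268, -3.69 in CRE10111 and -3.47 in CRE16040. The call of CRE12051 was lost without any 1 of 5 libraries, 1 of the ancestor and 4 of the heat-selected population, with values between -2.54 and -2.17. CRE22361 was -2.48 and not called within batches A, C and E, and -7.40 without the first heat-selected library of heated parents at 30 °C.

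Of 96 combinations of a gene and a group of 6 libraries, 1 was marked by the gap between its libraries. CRE16387 had 0.501 CPM, a count of 1, in the fourth heat-selected library of larvae at 20 °C with unheated parents and 0 in the other 5, so the gap is that of a single read. For normally distributed values the rule flags about 1 in 20 such groups, a rate that need not hold for low counts.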

How the results depend on the processing

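Of 47 called gene values, all kept their direction under the alternatives run, and summing consecutive libraries in pairs lost 39 of the calls, the setting with the most. The fit with pairs left 2 of the 16 genes called over all populations, 1 in the ancestor, 0 in either selected population, 0 and 5 for the control-selected and heat-selected difference from the ancestor in the parental effect, and 0 and 0 for the heat-selected level against ancestor and control-selected population. The cause was not tested, beyond the fewer samples it leaves.

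In the control-selected population the count of 1 became 5 with no filter, 0 at a minimum count of 50, 5 with DESeq2, 4 with no batch term, 2 in batches A, C and E only and 0 to 2 leaving out 1 library. With no batch term 7 genes were called over all populations, and CRE02851 reversed to -1.75 from an uncalled 0.64. The heat-selected count of 9 ran from 5 to 10 leaving out 1 library. For the larval response of heated parents between the heat-selected population and the ancestor, no filter gave 2, DESeq2 2, batches A, C and E 1 and leaving out 1 library 0 to 1. For the parental effect between the selected populations these were 2, 2, 1 and 0 to 2. For the level with unheated parents, scaling to total counts gave 1 gene between the control-selected population and the ancestor, limma-voom 3 between the selected populations, and limma-voom with batch as a random block 0 and 0. The cause was not tested.

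Libraries with the same number in different groups correlated at -0.099 to 0.86, over 0.1 in 15 of 18 pairs, and 7 of 18 correlated best with their own number, so the numbers were not taken to pair the libraries. A replicate block ended the call of CRE22361 between the control-selected population and the ancestor (-2.91) and gave 3 genes in the control-selected population, 1 for the response of heated parents between heat-selected population and ancestor, and 1 and 8 for the level of control-selected and heat-selected population against the ancestor.

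The rule chose 9 genes with scaling to total counts, all among the 16, and 8 with a pseudocount of 5, of which 6 were among the 16. In batches A, C and E only it chose 14, of which 11 were among the 16. CRE12051, CRE02851, CRE03443, CRE28556 and CRE08322 did not meet it there. Leaving out 1 library gave 12 to 18 genes (12 without the first control-selected library of heated parents at 30 °C). CRE01964, CRE18121 and CRE12268 met it under all 7 planned settings, CRE02851 under 1 and CRE28556 under 3. CRE04619 and CRE02593 met it in 19 of 48 omissions of a library, the other genes in 43 or more. Total counts moved the median of all genes by 0.37 and 0.31 for the heat-selected response with heated parents, against ancestor and control-selected population. Only 2 libraries per group of heated parents, and the few counts of CRE16387, CRE22361 and CRE27317, limit precision.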
